A study of Mus musculus with 10 samples.

Results

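8 genes of the neuronal cytoskeleton were followed in the hippocampus of TfamAKO and WT mice: the neurofilament genes Nefl, Nefm, Nefh and Ina, the microtubule-associated protein genes Map2 and Mapt, the neuronal tubulin gene Tubb3 and the stathmin gene Stmn2. They were taken by symbol from the unnormalized count table, in which each of the 8 had 1 row among 20156 rows, and all 8 were among the 16180 genes tested. RNA came from 5 mice labelled Tfam AKO and 5 labelled wild type, all 6 months old, with 1 library per mouse. Tfam encodes the protein that packages mitochondrial DNA. The series title names astrocytic mitochondria, while the labels give neither the promoter or Cre line, nor the strain, nor the cells in which Tfam was deleted.

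Neurofilaments are the intermediate filaments of mature neurons. The light, medium and heavy chains (Nefl, Nefm and Nefh) and alpha-internexin (Ina) assemble together, fill the axon and set its calibre, with the light chain as the core and long phosphorylated tails on the medium and heavy chains. Microtubules run beside them: MAP2 binds microtubules mainly in dendrites, tau (Mapt) mainly in axons, class III beta-tubulin (Tubb3) is a neuronal building block of the microtubule itself, and stathmin-2 (Stmn2) binds free tubulin dimers and is needed for axon maintenance and regrowth.

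RefSeq promoter sequences (GRCm38.p6, 250 bases before to 50 bases after the start) were available for only 3 of the 8 genes, and all 3 are shown. Of these, Ina and Map2 fell in TfamAKO and Tubb3 did not pass the test. The windows are chr19:47014431-47014730 (plus strand) for Ina, chr1:66175079-66175378 (plus strand) for Map2 and chr8:123411303-123411602 (plus strand) for Tubb3. Capitals mark GC boxes (GGGCGG or its reverse complement CCGCCC) and TATA motifs (TATAA or its reverse complement TTATA, which overlap in Tubb3).
Ina promoter: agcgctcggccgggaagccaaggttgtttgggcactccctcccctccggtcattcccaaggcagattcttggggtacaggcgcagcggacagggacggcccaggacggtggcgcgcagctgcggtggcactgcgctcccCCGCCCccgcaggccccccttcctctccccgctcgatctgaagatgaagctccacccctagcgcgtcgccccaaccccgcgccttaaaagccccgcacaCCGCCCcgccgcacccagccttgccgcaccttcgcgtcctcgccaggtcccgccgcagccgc
Map2 promoter: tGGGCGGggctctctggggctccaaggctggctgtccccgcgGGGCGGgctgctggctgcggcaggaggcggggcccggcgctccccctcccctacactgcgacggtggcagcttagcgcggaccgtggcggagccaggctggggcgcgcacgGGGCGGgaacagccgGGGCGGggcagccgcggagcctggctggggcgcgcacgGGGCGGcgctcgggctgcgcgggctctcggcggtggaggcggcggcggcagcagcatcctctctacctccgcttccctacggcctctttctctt
Tubb3 promoter: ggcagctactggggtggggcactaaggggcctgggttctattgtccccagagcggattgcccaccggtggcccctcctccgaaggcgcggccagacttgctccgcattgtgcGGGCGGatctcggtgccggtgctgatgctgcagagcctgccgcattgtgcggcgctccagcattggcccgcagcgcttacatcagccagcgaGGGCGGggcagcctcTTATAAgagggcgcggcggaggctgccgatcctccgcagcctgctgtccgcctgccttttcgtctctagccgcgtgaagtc
The Map2 window held 5 GC boxes and no TATAA on either strand, and the Ina window 2 GC boxes and no TATAA. The Tubb3 window held 2 GC boxes and TATAA on both strands, starting 30 bases before the start site on the plus strand. A GC box stood in 35.7% of all 32851 promoter windows and TATAA in 24.9%, and 2.71% of windows had at least as many GC boxes as Map2. GC content was 71.7% for Ina, 77.7% for Map2 and 67.3% for Tubb3, against a median of 52.7% over all windows. These matches describe the letters in the windows, and a relation to the genotype difference was not tested.

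Total counts ran from 19558377 to 28675367 per TfamAKO library and from 16584245 to 26032470 per WT library. Levels are given as CPM, read counts scaled to library size with TMM factors, and differences are log2 fold changes, TfamAKO minus WT, with their standard errors (SE) and Benjamini-Hochberg adjusted p-values over all genes tested from edgeR's quasi-likelihood test, with a threshold of 0.05. Tfam itself averaged 22.5 ± 1.63 CPM in TfamAKO and 29.7 ± 5.17 CPM in WT (SD, n = 5 each), and it fell (log2 fold change -0.40 ± 0.12 SE, edgeR adjusted p = 0.0204), with 1 WT library inside the TfamAKO range. Without WT 3, the low WT library, the log2 fold change of Tfam was -0.51 (edgeR adjusted p = 0.000724). The Tfam call was lost at a similar log2 fold change without TfamAKO 4 and 5 (-0.43, edgeR adjusted p = 0.0524), without TfamAKO 3 (-0.35, adjusted p = 0.0554), without WT 2 (-0.34, adjusted p = 0.0580) and without WT 4 (-0.37, adjusted p = 0.0504). It was also lost in the deposited normalized values (-0.28, limma adjusted p = 0.117), with their scaling factors as offsets (-0.28, edgeR adjusted p = 0.112) and with pan-neuronal scaling (-0.12, edgeR adjusted p = 0.411). Expression of the Y-linked gene Kdm5d (22.7 and 22.4 CPM) with near-absent Xist marked TfamAKO 4 and 5 as male, and the remaining libraries carried the female pattern. WT 3, 4 and 5 held choroid plexus transcripts (summed level of 10 markers 2862 to 5764 CPM, against 42.6 to 168 CPM in the other 7 libraries). In a principal component analysis TfamAKO 1 had a first-component score of 12.2, apart from the other TfamAKO libraries at 37.1 to 52.7 and from WT at -46.2 to -34.8.

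6 of the 8 genes fell in TfamAKO and 0 rose. The 4 neurofilament genes, Map2 and Stmn2 were the 6 that fell, and Mapt and Tubb3 did not pass. Over all genes tested, 16.6% were called lower in TfamAKO, 20.8% higher and 37.4% in either direction. The median log2 fold change of the 8 genes was -0.47, against -0.02 over all genes tested. The 8 genes together took 0.241% ± 0.0278 of counts in TfamAKO and 0.305% ± 0.0103 in WT (SD, n = 5 each). In whole hippocampus, fewer neurons, less of these mRNAs per neuron and a larger share of RNA from other cells cannot be told apart. 5 of the 6 calls held without TfamAKO 4 and 5, without WT 3, 4 and 5, and in each fit that left out 1 library, the exception being Stmn2. 

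The plot of CPM by library shows the 8 genes side by side.

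**Figure D1:**
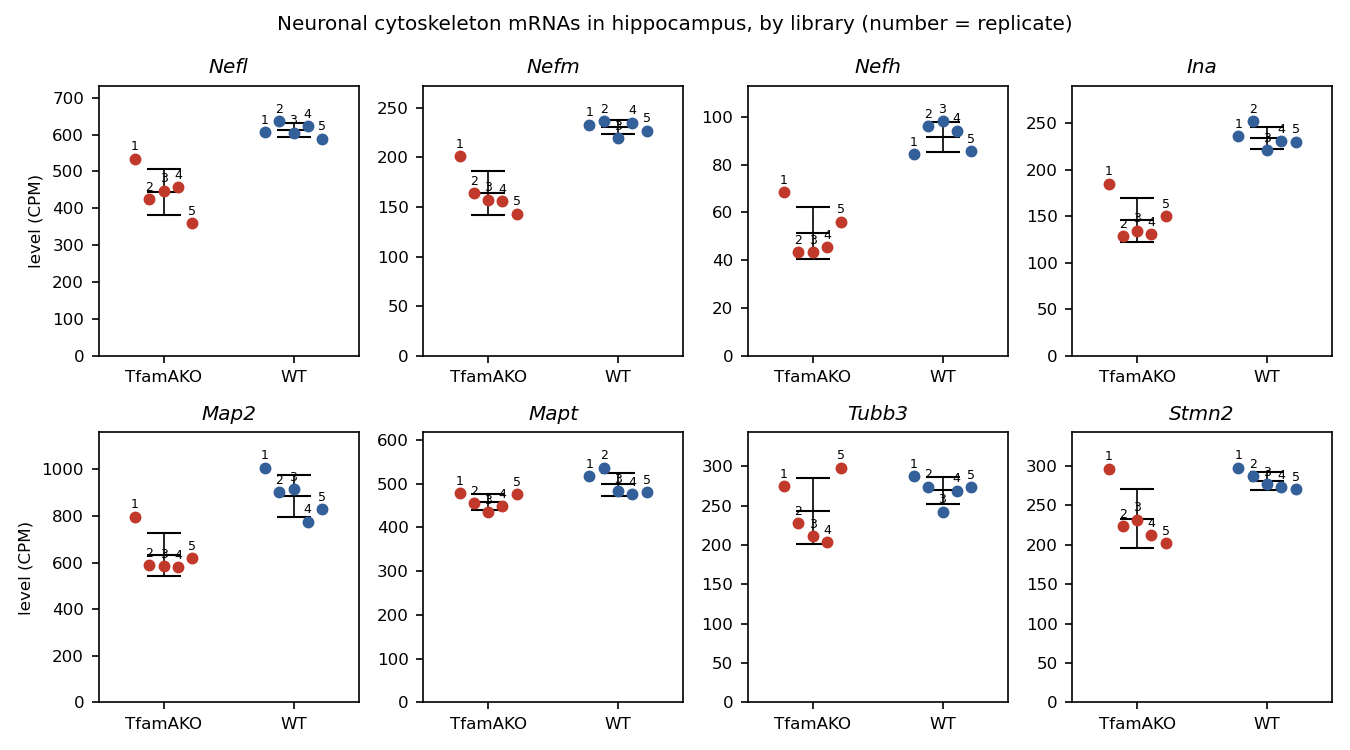
Level of each gene (CPM, y axis from 0) in 5 TfamAKO and 5 WT libraries, with the replicate number above each point and mean ± SD in black. For Nefl, Nefm, Nefh and Ina every TfamAKO point lies below every WT point, while Map2, Mapt, Tubb3 and Stmn2 overlap between the genotypes.

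Nefl, the light chain on which the filament is built, was at 534, 424, 448, 457 and 359 CPM in TfamAKO 1 to 5, against 605, 636, 605, 623 and 588 CPM in WT 1 to 5. All TfamAKO libraries lay below all WT libraries, with TfamAKO 1 nearest to WT and TfamAKO 5 lowest. Nefl fell by 27.3% (log2 fold change -0.46 ± 0.09 SE, edgeR adjusted p = 0.00168).

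Nefm, the medium chain, was at 201, 164, 157, 156 and 143 CPM in TfamAKO 1 to 5, against 233, 236, 219, 235 and 227 CPM in WT 1 to 5. TfamAKO 1 was the highest and TfamAKO 5 the lowest of the TfamAKO libraries, as for Nefl, and again no values overlapped. Nefm fell by 28.7% (log2 fold change -0.49 ± 0.08 SE, edgeR adjusted p = 0.000697).

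Nefh, the heavy chain with the longest phosphorylated tail, had the largest fold change of the 8 genes. It was at 68.5, 43.4, 43.3, 45.4 and 56.1 CPM in TfamAKO 1 to 5, against 84.2, 96.1, 98.1, 94.2 and 85.5 CPM in WT 1 to 5. TfamAKO 1 and 5 were the higher of the TfamAKO libraries and still lay below the lowest WT library. The mean was 51.3 ± 11.0 CPM in TfamAKO and 91.6 ± 6.34 CPM in WT (SD, n = 5 each), a fall by 44.0% (log2 fold change -0.84 ± 0.12 SE, edgeR adjusted p = 0.000294).

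Ina, the internexin that joins the 3 chains in central neurons, was at 185, 129, 135, 131 and 150 CPM in TfamAKO 1 to 5, against 236, 252.4, 221, 231 and 231 CPM in WT 1 to 5. It showed the same separation, with TfamAKO 1 and 5 the highest of their group as for Nefh. Ina fell by 37.7% (log2 fold change -0.68 ± 0.09 SE, edgeR adjusted p = 0.000211). For these 4 genes every TfamAKO library was below every WT library, which held for 9.43% of all genes tested. The 4 genes together took 0.0819% ± 0.0109 of counts in TfamAKO and 0.115% ± 0.00282 in WT (SD, n = 5 each).

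Some of the neurofilament genes share exonic sequence with a gene on the opposite strand in GENCODE M21. Nefl and Nefm, which lie next to each other on chromosome 14, share 1108 exonic bases, and Ina shares 456 with Nt5c2. The library kit was stranded. With the strand setting of the quantification not given in the sources used here, reads of these pairs may be mixed. The levels of these genes are uncertain to that extent, and so are the ratio and correlation of Nefm with Nefl given below. Nefh, Mapt, Tubb3 and Stmn2 had no such overlap, and Map2 shared 124 bases with Gm10558.

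Map2, the dendritic microtubule-associated protein, was at 797, 589, 584, 579 and 618 CPM in TfamAKO 1 to 5, against 1007, 903, 916, 776 and 828 CPM in WT 1 to 5. TfamAKO 1 lay above WT 4, so the groups overlapped through that 1 library. Map2 fell by 28.5% (log2 fold change -0.48 ± 0.10 SE, edgeR adjusted p = 0.00273).

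Mapt, which encodes tau, was at 478, 455, 435, 449 and 476 CPM in TfamAKO 1 to 5, against 517, 536, 482, 476 and 480 CPM in WT 1 to 5. The ranges met at 476 to 478 CPM, and Mapt had the smallest spread within TfamAKO of the 8 genes (coefficient of variation 4.08%). Its log2 fold change of -0.12 ± 0.05 SE did not pass (edgeR adjusted p = 0.102), with a 95% interval of -0.24 to -0.0018 before adjustment.

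Tubb3, the neuronal beta-tubulin, was at 275, 228, 212, 203 and 298 CPM in TfamAKO 1 to 5, against 288, 274, 242, 269 and 273 CPM in WT 1 to 5. TfamAKO 5 held the highest value of all 10 libraries, and TfamAKO 2, 3 and 4 the lowest 3. Tubb3 did not pass (log2 fold change -0.15 ± 0.10 SE, edgeR adjusted p = 0.276), and its 95% interval of -0.37 to 0.08 does not show that the genotypes were alike. The log2 fold change was -0.23 without TfamAKO 5 (edgeR adjusted p = 0.0531) and -0.089 without TfamAKO 4 (adjusted p = 0.523). Tubulin genes are close copies of each other, so reads divided between them leave their levels uncertain.

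Stmn2, the stathmin of axon upkeep, was at 297, 224, 232, 212 and 202 CPM in TfamAKO 1 to 5, against 298, 287, 277, 273 and 270 CPM in WT 1 to 5. TfamAKO 1 lay among the WT libraries and the other 4 below them. Stmn2 fell by 17.0% (log2 fold change -0.27 ± 0.09 SE, edgeR adjusted p = 0.0379). The call was lost without TfamAKO 4 and 5 (log2 fold change -0.16, edgeR adjusted p = 0.195), without WT 3, 4 and 5 (-0.30, adjusted p = 0.160) and in 8 of 10 fits that each left out 1 library (adjusted p up to 0.0903), and without TfamAKO 1 it had an adjusted p of 0.000367.

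TfamAKO 1 had the highest value among TfamAKO libraries for 7 of the 8 genes, the exception being Tubb3. The spread was wider in TfamAKO than in WT for 7 of the 8 genes, all but Mapt. Coefficients of variation in TfamAKO ran from 4.08% for Mapt to 21.3% for Nefh, and in WT from 3.02% for Nefl to 9.99% for Map2. 

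**Figure D2:**
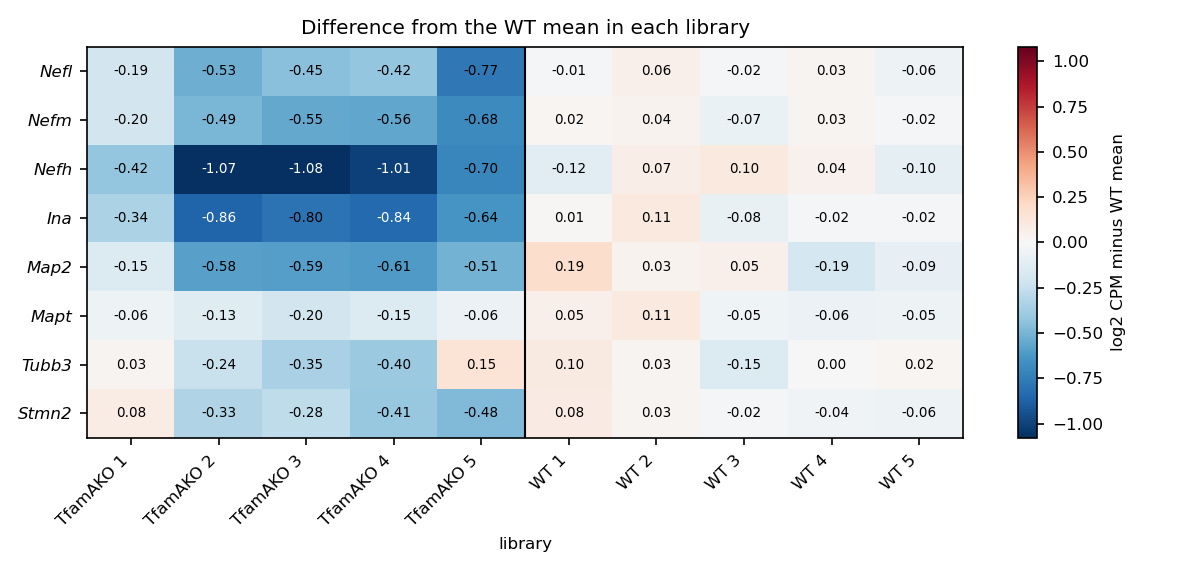
Log2 CPM of each gene (rows) in each library (columns) minus the WT mean of that gene, with the value printed and coloured from blue (lower) to red (higher). TfamAKO 2, 3 and 4 are lowest for Nefh and Ina, TfamAKO 1 is the palest TfamAKO column, and TfamAKO 5 combines the lowest Nefl (-0.77) with a Tubb3 above the WT mean (0.15).

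Levels were set against each other per kilobase of the longest annotated coding transcript of GENCODE M21, which ran from 1868 bases for Tubb3 to 6258 for Map2. On this scale of CPM per kilobase, the TfamAKO order was Nefl (131 ± 18.7), Tubb3 (130 ± 22.2), Stmn2 (112 ± 18.0), Map2 (101 ± 14.8), Mapt (87.3 ± 3.56), Ina (45.1 ± 7.25), Nefm (44.6 ± 5.93) and Nefh (12.9 ± 2.74). The WT order was Nefl (181 ± 5.46), Tubb3 (144 ± 8.92), Map2 (142 ± 14.1), Stmn2 (135 ± 5.46), Mapt (94.9 ± 5.08), Ina (72.3 ± 3.53), Nefm (62.5 ± 1.90) and Nefh (22.9 ± 1.59), SD with n = 5 in both genotypes. In TfamAKO the first 4 had overlapping ranges, as had Ina and Nefm. In WT Nefl stood clear of the rest, and Tubb3, Map2 and Stmn2 lay within each other's spread. Map2 and Mapt have several isoforms of different length, so their places in the order depend on the transcript chosen.

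Ratios of counts within a library do not depend on how libraries are scaled, and 4 were compared between the genotypes by two-sided exact permutation tests over all assignments of the 10 libraries. The Nefh/Nefl ratio was 0.128, 0.102, 0.0966, 0.0995 and 0.156 in TfamAKO 1 to 5, against 0.139, 0.151, 0.162, 0.151 and 0.145 in WT 1 to 5. 4 of the 5 TfamAKO libraries lay below WT and TfamAKO 5 inside the WT range. The log2 ratio differed by -0.39 (exact p = 0.0397, adjusted over the 4 ratios 0.0794). 

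The Ina/Nefl ratio was 0.347, 0.304, 0.301, 0.286 and 0.419 in TfamAKO 1 to 5, against 0.366 to 0.397 in WT, with TfamAKO 5 above and the other 4 below the WT range (log2 difference -0.22, exact p = 0.0873, adjusted 0.116). The Nefm/Nefl ratio averaged 0.370 ± 0.0241 in TfamAKO and 0.376 ± 0.00942 in WT (SD, n = 5 each), a difference smaller than the spread (log2 difference -0.02, exact p = 0.643, adjusted 0.643). The Map2/Mapt ratio, dendritic over axonal protein gene, was 1.67, 1.29, 1.34, 1.29 and 1.30 in TfamAKO 1 to 5, against 1.95, 1.68, 1.90, 1.63 and 1.72 in WT 1 to 5, with only TfamAKO 1 inside the WT range (log2 difference -0.37, exact p = 0.0159, adjusted 0.0635).

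None of the 4 ratios passed after adjustment with all 10 libraries, where the smallest unadjusted p possible was 0.00794. Without TfamAKO 5, the Nefh/Nefl (log2 difference -0.50, exact permutation adjusted p = 0.0317), Ina/Nefl (-0.31, adjusted p = 0.0317) and Map2/Mapt (-0.35, adjusted p = 0.0423) ratios did pass. In every other fit that left out 1 library, no ratio passed. There the exact permutation adjusted p was up to 0.159 for Nefh/Nefl, 0.233 for Ina/Nefl and 0.127 for Map2/Mapt. TfamAKO 5 also had the highest Tubb3/Nefl ratio of all libraries, 0.831, against 0.445 to 0.536 in the other TfamAKO libraries and 0.400 to 0.475 in WT, a ratio chosen after its values were seen. In the same library the summed level of 12 neocortex and thalamus markers was the highest of all, at 480 CPM, against 242 to 318 CPM in the other TfamAKO libraries and 275 to 420 CPM in WT, and its part in these ratios was not tested.

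**Figure D3:**
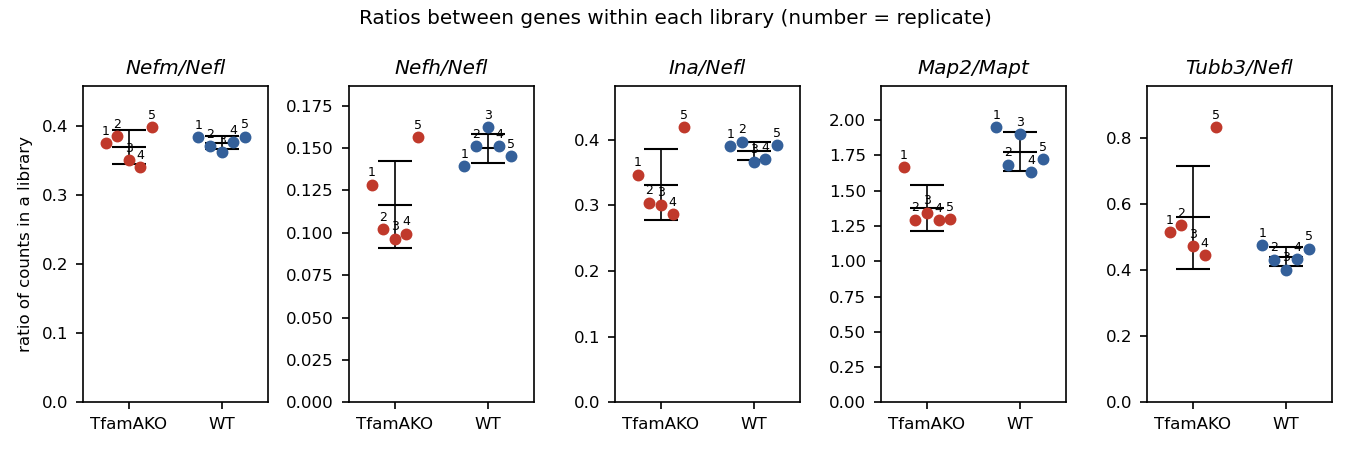
Ratio of counts of the named genes within each library (y axis from 0) for 5 TfamAKO and 5 WT libraries, with the replicate number above each point and mean ± SD in black. Nefh/Nefl and Map2/Mapt are lower in most TfamAKO libraries, Nefm/Nefl is level, and TfamAKO 5 stands highest for Tubb3/Nefl at 0.831.

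Other neuronal transcripts were lower as well. Of 16 pan-neuronal markers, 0 rose, 12 fell and 4 did not pass, against 20.8% higher and 16.6% lower over all genes tested. Their median log2 fold change was -0.32, and their summed level was 11154 to 12409 CPM in TfamAKO and 13326 to 15446 CPM in WT. Snap25, a protein of synaptic vesicle fusion, averaged 1525 ± 139 CPM in TfamAKO and 2020 ± 60.6 CPM in WT (SD, n = 5 each) and fell (log2 fold change -0.41 ± 0.07 SE, edgeR adjusted p = 0.000651). The vesicle protein gene Syp (-0.32 ± 0.06 SE) also fell on the log2 scale.

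When libraries were scaled to the summed counts of these 16 markers instead of by TMM, Nefh (log2 fold change -0.57, edgeR adjusted p = 0.00137), Ina (-0.41, adjusted p = 0.00138), Nefm (-0.22, adjusted p = 0.0419) and Map2 (-0.21, adjusted p = 0.0453) remained lower in TfamAKO. Nefl no longer passed (-0.19, edgeR adjusted p = 0.113). Stmn2 was level with the markers (0.0023, edgeR adjusted p = 0.984), and Mapt (0.16, adjusted p = 0.0527) and Tubb3 (0.12, adjusted p = 0.280) changed sign without passing. This scaling moved the median log2 fold change of all genes from -0.02 to 0.26, and it called 605 genes lower (3.74% of those tested) and 7225 higher, against 2679 lower and 3369 higher with TMM. Under TMM, DESeq2 size factors and upper-quartile scaling the same 6 genes were called lower.

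**Figure D4:**
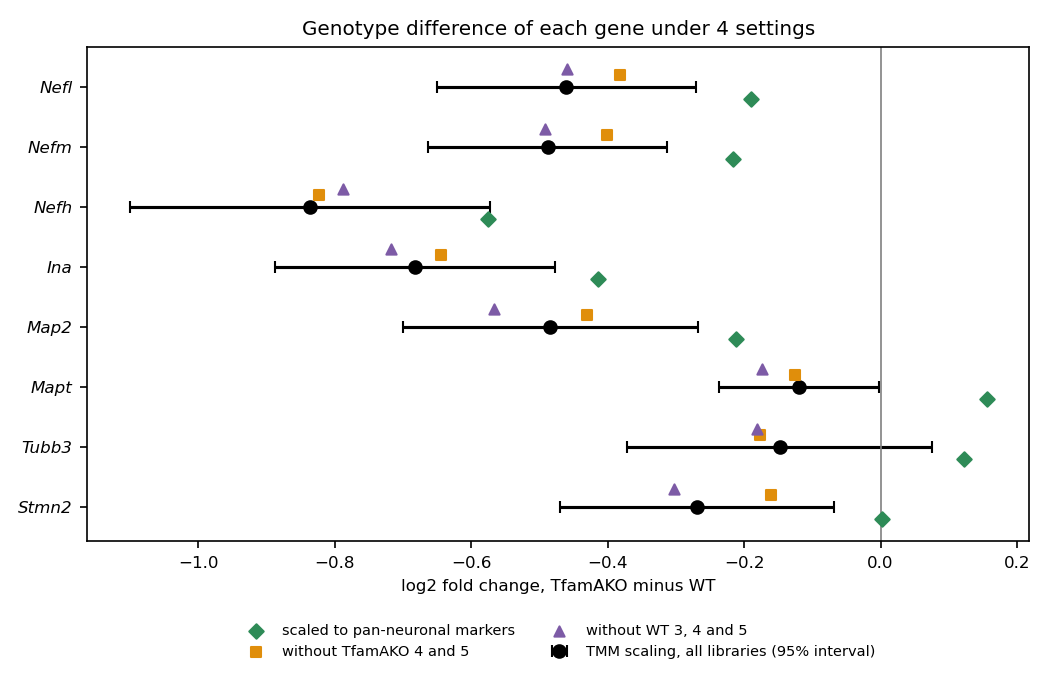
Log2 fold change (TfamAKO minus WT) of each gene with TMM scaling and all libraries (black, with 95% interval), with libraries scaled to 16 pan-neuronal markers (green), without TfamAKO 4 and 5 (orange) and without WT 3, 4 and 5 (purple). Nefh and Ina stay farthest left in all 4, while Mapt, Tubb3 and Stmn2 lie at or right of 0 under the pan-neuronal scaling.

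Markers of neuron classes moved by different amounts, beside 20.8% higher and 16.6% lower over all genes tested. Of 12 interneuron markers, 0 rose and 8 fell, with a median log2 fold change of -0.64, among them Sst (somatostatin, -0.95 ± 0.18 SE), Gad1 (a GABA-synthesising enzyme, -0.72 ± 0.18 SE) and Cck (cholecystokinin, -0.68 ± 0.07 SE). Their summed level was 537 to 1075 CPM in TfamAKO and 1083 to 1310 CPM in WT. Of 12 excitatory neuron markers, 0 rose and 3 fell, with a median of -0.28. Slc17a7, the vesicular glutamate transporter of these neurons, averaged 1487 ± 159 CPM in TfamAKO and 1592 ± 63.0 CPM in WT (SD, n = 5 each) and did not pass (-0.10 ± 0.07 SE, edgeR adjusted p = 0.302), while Nrgn (-0.24 ± 0.07 SE) and Camk2a (-0.30 ± 0.08 SE) fell.

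Markers of glia and vessels differed by cell type, beside 20.8% higher and 16.6% lower over all genes tested. Of 10 microglia markers 9 rose and 0 fell, with summed levels of 760 to 985 CPM in TfamAKO and 409 to 477 CPM in WT. The microglial receptor gene Csf1r (0.90 ± 0.10 SE) and the complement gene C1qa (1.53 ± 0.12 SE) were among those that rose on the log2 scale. Of 10 astrocyte markers 5 rose and 2 fell, with Gfap, the astrocyte intermediate filament (2.23 ± 0.17 SE), and the glutamate transporter gene Slc1a3 (0.55 ± 0.11 SE) higher and the transporter gene Slc1a2 (-0.66 ± 0.13 SE) lower (4845 to 7179 CPM in TfamAKO and 3902 to 4815 CPM in WT), of 10 endothelial and mural markers 6 rose and 0 fell (532 to 780 CPM and 378 to 502 CPM), and of 10 oligodendrocyte markers 3 rose and 0 fell (5916 to 8024 CPM and 5178 to 9008 CPM). Of 8 oligodendrocyte precursor markers 0 rose and 2 fell (423 to 561 CPM in TfamAKO and 487 to 761 CPM in WT). The 10 choroid plexus markers all fell, with the high levels in WT 3, 4 and 5 given above, and of 12 neocortex and thalamus markers 4 rose and 1 fell. The part of these shifts in the fall of the 8 genes was not tested.

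Of 7 other genes tested that encode intermediate filament proteins or proteins found with them, 2 rose and 0 fell, against 20.8% higher and 16.6% lower over all genes tested. Nes, which encodes nestin of progenitors and reactive glia, averaged 91.7 ± 31.6 CPM in TfamAKO and 9.94 ± 1.42 CPM in WT (SD, n = 5 each; log2 fold change 3.20 ± 0.27 SE, edgeR adjusted p = 5.95e-06). Bfsp2, known from the lens, averaged 8.10 ± 1.20 CPM in TfamAKO and 3.88 ± 1.53 CPM in WT (SD, n = 5 each) and rose (1.05 ± 0.24 SE, edgeR adjusted p = 0.00465). Plec, a cross-linker of filaments (0.27 ± 0.12 SE, edgeR adjusted p = 0.107), and Sncg, gamma-synuclein, an axonal protein (-0.62 ± 0.23 SE, adjusted p = 0.0551), did not pass.

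Of 15 tubulin genes tested, 2 rose, 3 fell and 10 did not pass, counts near the 20.8% higher and 16.6% lower of all genes tested. Tuba4a, an alpha-tubulin of mature neurons, averaged 305 ± 61.3 CPM in TfamAKO and 441 ± 10.8 CPM in WT (SD, n = 5 each) and fell (log2 fold change -0.53 ± 0.11 SE, edgeR adjusted p = 0.00319). Tubb4b (-0.30 ± 0.09 SE) fell too, whereas Tubb2b, a beta-tubulin of developing neurons and glia (0.77 ± 0.07 SE, edgeR adjusted p = 1.49e-05), and Tubb6 (4.37 ± 0.33 SE, adjusted p = 3.25e-06) rose. Tubb6 was at 16.1 ± 6.21 CPM in TfamAKO and 0.771 ± 0.274 CPM in WT (SD, n = 5 each).

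Of 29 other microtubule-associated protein genes, 5 rose and 10 fell, with a median of -0.14, against 20.8% higher and 16.6% lower over all genes tested. Dclk1, a doublecortin-like kinase (-0.38 ± 0.07 SE), and Mapre3, the neuronal end-binding protein EB3 (-0.24 ± 0.05 SE), fell, while Mapre1, the general end-binding protein EB1 (0.53 ± 0.07 SE), and the minus-end binder Camsap2 (0.25 ± 0.05 SE) rose on the log2 scale. Of the 3 other stathmins, Stmn3 fell (-0.52 ± 0.10 SE, edgeR adjusted p = 0.00197), and Stmn1 (-0.21 ± 0.18 SE, adjusted p = 0.371) and Stmn4 (-0.13 ± 0.08 SE, adjusted p = 0.191) did not pass. 

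Enzymes that act on tau and tubulin were called in both directions, against 20.8% higher and 16.6% lower over all genes tested. Of 25 tau kinases and phosphatases, 6 rose and 10 fell, with a median of -0.07, and Cdk5r2, the p39 activator of the neuronal kinase CDK5 (-0.45 ± 0.09 SE), Mapk10, the neuronal JNK3 (-0.32 ± 0.05 SE), and the phosphatase Ppp5c (-0.22 ± 0.04 SE) fell while Mark3 (0.26 ± 0.05 SE) rose. Of 21 tubulin-modifying and microtubule-severing enzymes, 3 rose and 5 fell, a total near the 37.4% of all genes tested that were called. Among them the glutamylase Ttll5 (-0.52 ± 0.09 SE) and the severing enzyme Spast (-0.25 ± 0.07 SE) were lower. Agbl2 (0.84 ± 0.21 SE) and Vash1 (0.34 ± 0.10 SE), which trim tubulin tails, were higher.

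Of 24 axonal transport motor genes, 3 rose and 6 fell, a total near the 37.4% of all genes tested that were called. That background was 20.8% higher and 16.6% lower. Dynein light chain Dynll1 (-0.61 ± 0.11 SE), Dynll2 (-0.18 ± 0.05 SE) and kinesin light chain Klc2 (-0.34 ± 0.05 SE) fell, and Kif17, a dendritic kinesin (0.70 ± 0.09 SE), rose. Of 16 spectrin and ankyrin scaffold genes, 4 rose and 6 fell, with Epb41l1 (-0.37 ± 0.07 SE) and Epb41l3 (-0.43 ± 0.08 SE), which link spectrin to the membrane, lower and the adhesion molecule Nrcam (0.52 ± 0.07 SE) and adducin Add3 (0.48 ± 0.08 SE) higher. 

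Of 16 tested genes of axon growth and injury response, 5 rose and 6 fell, against 20.8% higher and 16.6% lower over all genes tested. The stress-induced genes Atf3 (3.33 ± 0.33 SE, edgeR adjusted p = 1.97e-05), Gadd45a (3.29 ± 0.17 SE, adjusted p = 1.61e-07) and Ddit3 (2.05 ± 0.15 SE, adjusted p = 2.65e-06) rose on the log2 scale, and the actin regulator Cap2 (-0.35 ± 0.05 SE) fell. Which cells of the whole hippocampus carried these changes was not tested. Of 8 immature neuron markers, 3 rose and 1 fell. Those with the highest level were Tubb2b, given above, Sox4 (0.83 ± 0.11 SE), which rose, and Calb2 (-0.85 ± 0.36 SE, edgeR adjusted p = 0.0798), which did not pass. Astrocytes and other glia also express Sox4 and Tubb2b.

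**Figure D5:**
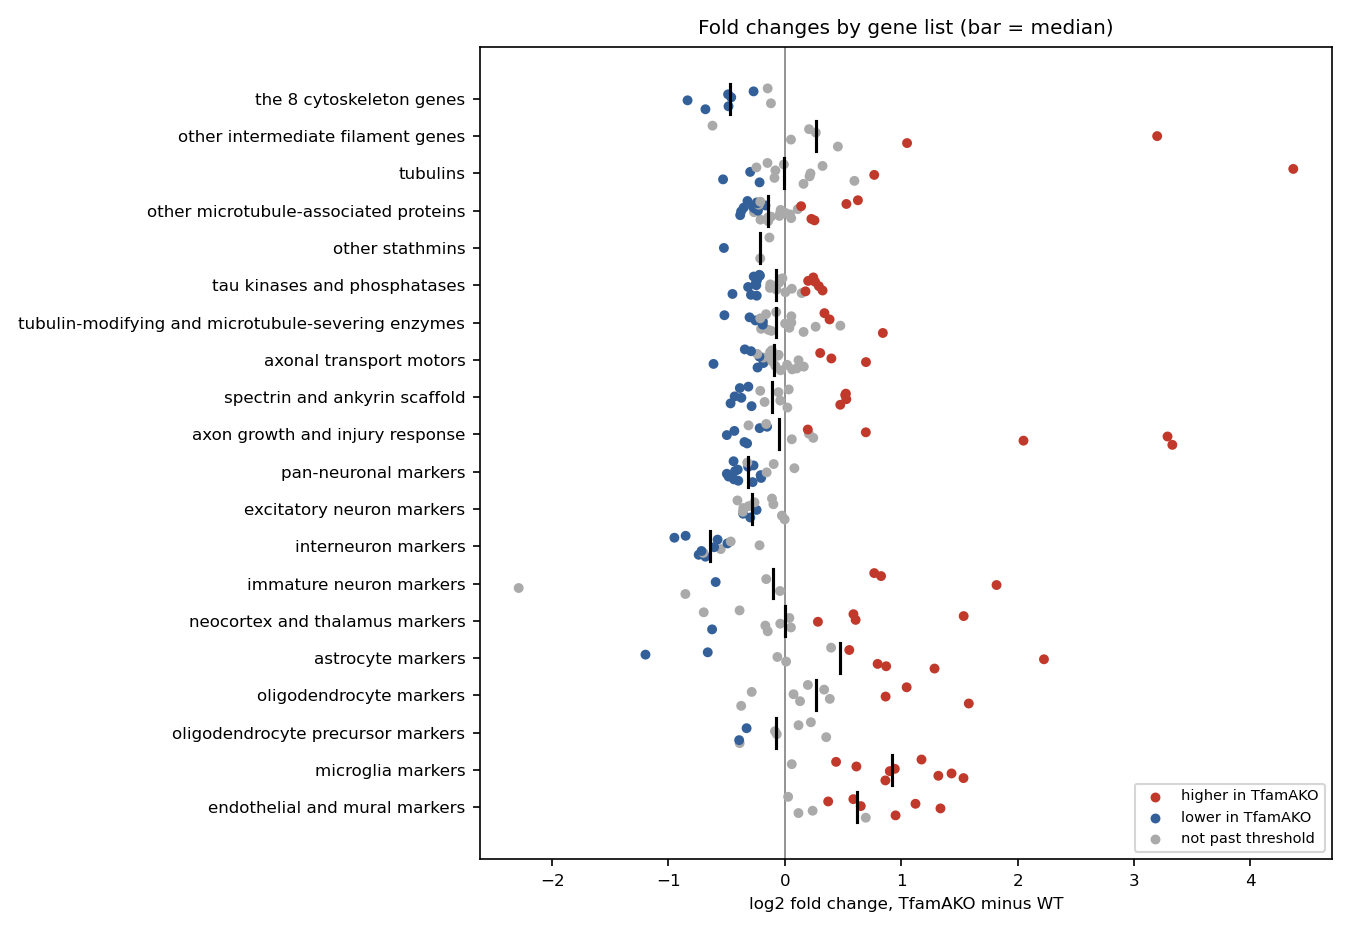
Log2 fold change (TfamAKO minus WT) of every tested gene of the 8-gene set and of the context lists, except choroid plexus markers, with red for higher in TfamAKO, blue for lower, grey for not past the threshold and a bar at the median. The 8 cytoskeleton genes have a median of -0.47, lower than all lists shown but interneuron markers at -0.64.

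After the mean of each genotype was subtracted, Pearson's r of log2 CPM over the 10 libraries was 0.88 between Nefl and Nefm, 0.94 between Nefm and Stmn2 and 0.88 between Nefh and Ina, and 27 of 28 pairs were positive. These values share the libraries and rest in part on TfamAKO 1, and reads mixed between Nefl and Nefm may enter theirs. Without it 15 of 28 pairs were positive. The values were then 0.73 for Nefl with Nefm, 0.68 for Nefm with Stmn2 and 0.60 for Nefh with Ina, while Nefl with Nefh gave -0.62, against 0.33 with all libraries, and Nefl with Tubb3 gave -0.87, against -0.23.

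Among 10434 other genes of at least 10 CPM, those whose deviations were most like the mean of Nefl, Nefm and Nefh over the 10 libraries were Btbd3 (r = 0.97), Sfxn1 (0.97), Ntsr2 (0.96), Cldn10 (0.96) and Lix1 (0.95). Without TfamAKO 1 their r was 0.78, 0.61, 0.62, 0.80 and 0.76. Btbd3, which directs dendrite orientation in cortex, averaged 188 ± 44.6 CPM in TfamAKO and 268 ± 18.9 CPM in WT (SD, n = 5 each) and fell (log2 fold change -0.51 ± 0.13 SE, edgeR adjusted p = 0.00853). The neurotensin receptor gene Ntsr2 (-1.93 ± 0.24 SE) and the claudin gene Cldn10 (-1.59 ± 0.15 SE), both known from astrocytes, fell, while the mitochondrial serine carrier gene Sfxn1 (-0.03 ± 0.09 SE, edgeR adjusted p = 0.838) and Lix1 (-0.25 ± 0.13 SE, adjusted p = 0.148) did not pass.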

How the data were processed

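Hippocampal RNA of 10 mice was sequenced from stranded mRNA libraries, per the labels' protocols. The authors deposited estimated counts per gene symbol, all whole numbers, and a table of normalized values, which is read here as a signal scale whose construction, like the genome build and annotation, was not given in the sources used here. Submitters' processing notes name Salmon and DESeq2 version 1.26.0.

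The main analysis of the deposited counts was edgeR (4.0.16, under R 4.3.3) with filterByExpr at a minimum count of 10, TMM scaling and a two-sided quasi-likelihood test of genotype alone. SE was derived from the F statistic. Intervals are 95%. Alternatives used limma 3.58.1, DESeq2 1.42.0 and the settings named in the closing section. On simulated data for TfamAKO against WT with 16180 genes and 50 altered genes per fold size, recovery was 8% at a fold of 1.25, 60% at 1.5, 90% at 2 and 100% at 4, and 6 of 135 calls were false. The real data had 6048 calls, so the adjusted threshold was stricter in the simulation. Its recovery rates therefore do not describe the real data.

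Genes and lists were chosen with earlier results of these data known. Named are the 8 genes, Tfam, of each pathway list the 4 tested genes with the smallest p, of each marker list up to 3 of the highest level, and the 5 genes most like the neurofilament mean. Some marker genes that this rule names are not reported here. Replicate numbers did not pair the libraries (r of deviations between -0.14 and 0.07). P-values set the genotype difference against the spread between mice. Reads carry no stated molecular identifiers, so precision from depth covers counting error only.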

Additional observations from a re-analysis of the deposited data

Results flagged for a closer look

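In 4 of the 26 groups of 5 libraries examined, 1 library lay farther from the others than Dixon's 95% limit, and chance flags about 1 in 20 groups. Map2 in TfamAKO 1 was at 797 CPM, above the other TfamAKO libraries. The Map2/Mapt ratio of TfamAKO 1, at 1.67, stood above the other TfamAKO libraries as well. Tfam was at 19.6 CPM in TfamAKO 3, below the other TfamAKO libraries, and at 20.6 CPM in WT 3, below the other WT libraries.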

How the results depend on the processing

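Nefm, Nefh, Ina and Map2 kept their direction and their call in all 24 alternatives. These were other scalings and filters, DESeq2, limma-voom, the deposited normalized values, their scaling factors as offsets, a replicate block and left-out libraries. The offsets were chosen after seeing the data. Nefl kept its direction and its call in 23 of 24. Stmn2 kept its call in 13 of 24. Scaling to pan-neuronal markers changed the sign of Mapt (0.16) and Tubb3 (0.12), neither past the threshold, brought Stmn2 to 0.0023 and ended the call of Nefl (-0.19, edgeR adjusted p = 0.113); this follows from the lower marker sum in TfamAKO. The count of all genes called was 6048, and 2752 without WT 3, 4 and 5, where fewer samples were fitted; over fits without 1 library it ran from 4828 to 7094. Between 4 and 6 of the 8 genes were called lower in each setting, 5 to 6 with 1 library left out. With 1 library left out, the log2 difference ran from -0.50 to -0.32 for Nefh/Nefl, -0.31 to -0.17 for Ina/Nefl, -0.44 to -0.34 for Map2/Mapt and -0.052 to 0.0052 for Nefm/Nefl, which was 0.0052 without TfamAKO 4. Without WT 3, 4 and 5 the ratios could not be tested at the threshold. With the replicate block 5679 genes and 6 of the 8 were called, with Nefl at -0.47 (edgeR adjusted p = 0.00315), but the numbers did not pair the libraries. The gene-specific part of the deposited scaling ran from 0.964 to 1.03 for the 8 genes.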
